A study of Mus musculus with 12 samples.

Results

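Major urinary proteins are small secreted lipocalins that the mouse liver makes in large amounts. The genes described here are 8 of them, Mup1, Mup3, Mup7, Mup11, Mup12, Mup14, Mup20 and Mup21, taken as the rows of a liver expression table that carry these symbols, 8 of 18560 rows. All 8 had at least 1 FPKM (fragments per unit of transcript length, relative to all fragments mapped in the library) in at least 3 libraries and were tested. The family had 13 further rows in the table, which are used as a comparison and for the family's summed level. The 8 members were chosen with earlier results of these data known, so counts over them may in part follow from the choice. RNA sequencing was done on whole liver of mice aged 12 months, in 4 groups of 3 libraries: OXR1A-/- males, wild-type (WT) males, OXR1A-/- females and WT females. OXR1A is an isoform encoded by Oxr1, a gene known for resistance to oxidative stress, and the study set mice deficient in it against WT mice. The labels name the genotype and sex of each library but not the strain or the allele. They also leave unsaid whether each library is a mouse of its own, and the spread behind the p-values may thus be technical.

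Mouse liver secretes major urinary proteins into the blood, the kidney passes them into urine, and there they hold small volatile molecules and act in scent signals between animals. Their genes form a cluster of central copies that are nearly identical to one another and peripheral copies that differ more. In liver the family is known as a male-biased readout of pulsed growth hormone, which acts through the growth hormone receptor (Ghr) and the transcription factor STAT5B.

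In the RefSeq gene table of build GRCm38.p6 all 21 family rows lay on mouse chromosome 4, between 59956804 and 62150841. The members lay in the order Mup7 (chr4:60066469-60070475), Mup1 (chr4:60498012-60501960), Mup11 (chr4:60658466-60662432), Mup12 (chr4:60737381-60741416), Mup14 (chr4:61300037-61304089), Mup20 (chr4:62011337-62054143), Mup3 (chr4:62083476-62087317) and Mup21 (chr4:62147832-62150841). Their Entrez numbers in the table are 100041658 for Mup7, 17840 for Mup1, 100039028 for Mup11, 100039054 for Mup12, 100039116 for Mup14, 381530 for Mup20, 17842 for Mup3 and 381531 for Mup21.

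RefSeq promoter sequences (GRCm38.p6, 250 bases before to 50 after the annotated start) were present for 5 of the 8 members, Mup3, Mup7, Mup11, Mup14 and Mup21, and for 9 other family rows. They are shown because genes with much alike upstream sequence differed in their direction between the sexes. Each line gives 180 bases upstream of the sequence TATATAA and that sequence itself, 5′ to 3′ on the gene's strand, with TATATAA in capitals. This motif was chosen after the sequences had been read. The first pair are 2 central members, the next pair are 2 peripheral members, and the last pair are Mup6 and Mup4, 2 peripheral genes outside the 8.
Mup14 (chr4:61303980-61304166, minus strand): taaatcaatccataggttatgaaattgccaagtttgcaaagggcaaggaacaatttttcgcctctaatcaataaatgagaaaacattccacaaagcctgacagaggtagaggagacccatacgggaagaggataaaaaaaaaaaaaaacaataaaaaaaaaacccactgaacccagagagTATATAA
Mup11 (chr4:60662391-60662577, minus strand): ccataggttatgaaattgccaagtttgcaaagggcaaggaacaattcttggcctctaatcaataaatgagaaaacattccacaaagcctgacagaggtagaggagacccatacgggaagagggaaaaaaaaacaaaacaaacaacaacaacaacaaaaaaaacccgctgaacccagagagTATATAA
Mup3 (chr4:62087322-62087508, minus strand): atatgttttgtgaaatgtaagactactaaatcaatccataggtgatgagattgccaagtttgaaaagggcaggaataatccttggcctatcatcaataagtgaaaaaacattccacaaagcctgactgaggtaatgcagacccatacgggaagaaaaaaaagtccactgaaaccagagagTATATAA
Mup21 (chr4:62150843-62151029, minus strand): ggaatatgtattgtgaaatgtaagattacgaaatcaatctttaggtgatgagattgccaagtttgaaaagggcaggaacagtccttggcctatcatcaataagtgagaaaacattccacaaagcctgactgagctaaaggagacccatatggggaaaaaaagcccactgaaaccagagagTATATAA
Mup6 (chr4:60003272-60003458, plus strand): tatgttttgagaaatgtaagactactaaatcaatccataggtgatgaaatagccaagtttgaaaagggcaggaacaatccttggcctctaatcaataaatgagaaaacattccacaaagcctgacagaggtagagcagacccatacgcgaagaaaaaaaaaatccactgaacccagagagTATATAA
Mup4 (chr4:59960690-59960876, minus strand): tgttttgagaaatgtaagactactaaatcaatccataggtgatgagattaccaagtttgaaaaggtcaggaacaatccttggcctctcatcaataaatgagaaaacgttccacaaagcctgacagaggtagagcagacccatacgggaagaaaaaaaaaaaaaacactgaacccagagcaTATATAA

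Over these 187 bases, aligned end to end with gap positions counted as unlike, Mup14 and Mup11 were 87.2% identical and Mup3 and Mup21 89.5% identical. Mup3 was 91.5% identical to Mup6 and 87.9% to Mup4, against 67.1% to Mup14 and 60.8% to Mup11. By this measure the peripheral members resembled Mup6 and Mup4 more than the central members. Every window has the same length and ends at TATATAA, so extra bases near the motif push matching upstream bases out of it. The window of Mup11 starts at ccataggt, which lies further inside the window of Mup3. Unmatched ends count as unlike and lower these percentages. Likeness over the shared part alone was not measured. The longest run made only of A and C was 42 bases in Mup11, against 18 in Mup14, 8 in Mup3, 7 in Mup21, 10 in Mup6 and 17 in Mup4. In this the central member Mup14 was close to the peripheral gene Mup4.

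TATATAA, searched on both strands of the 300-base promoters, was present in 4 of the 5 member promoters and 9 of the 9 other family promoters, against 3.46% of 27025 promoters in the table. The promoter window of Mup7 did not hold it. That window ended in a stretch that lies upstream of the motif in Mup11, so it cannot show whether Mup7 has the motif. In Mup14 the annotated start lay upstream of the motif, so these start sites are annotations that differ between near-identical genes. TTCNNNGAA, the motif of the STAT5 family, was in 0 of 5 member promoters and 0 of 9 others, against 8.47% of all promoters. TATAAA was in 0 of 5 and 2 of 9, against 14.2%, and CCAAT was in 3 of 5 and 3 of 9, against 37.9%. A match, or none, describes only the letters of these windows.

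The family's near-identity also bears on what a separate FPKM value means. Of the 50-base windows along each annotated transcript (GENCODE mouse release 21, 141767 transcripts searched), the share found in no other gene was 83.4% in Mup3, 80.7% in Mup21 and 49.5% in Mup20. It was 14.6% in Mup12, 11% in Mup11, 9.76% in Mup7, 5.24% in Mup1 and 2.40% in Mup14. Mup1 was 99.5% identical to Mup2 over the whole transcript, Mup12 was 99.4% identical to Mup1, Mup14 99.4% and Mup11 99.0% identical to Mup2, and Mup7 94.4% identical to Mup8. The split of reads among these 5 genes and their copies is uncertain, since how the submitters' counting treated shared reads is not given in the sources used here. Mup20 was at most 90.4% identical to another family transcript (Mup4), Mup3 at most 87.4% (Mup20) and Mup21 at most 69.5% (Mup3).

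**Figure D1:**
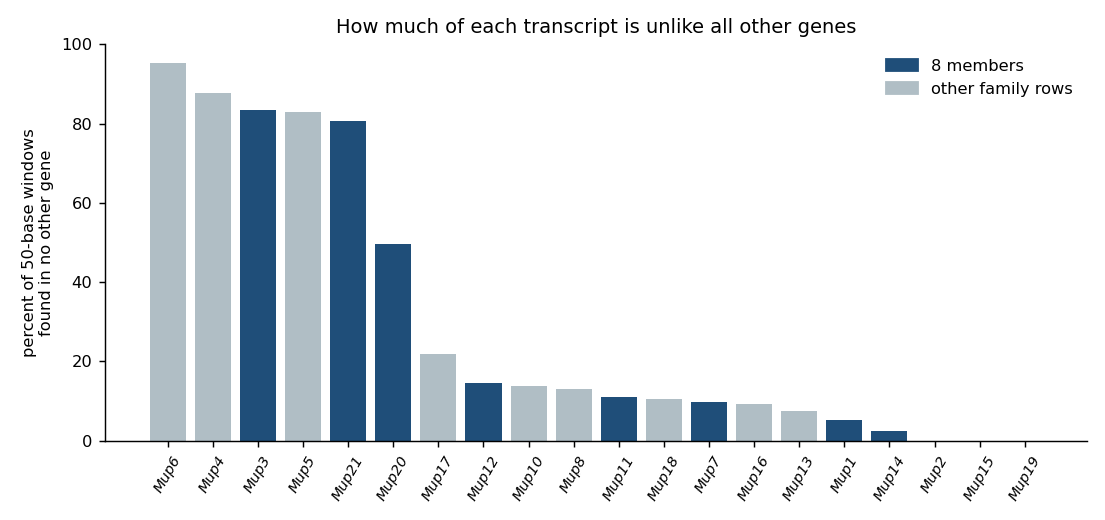
Percent of the 50-base windows of each annotated transcript that occur in no other gene (vertical axis, percent), for the 20 family rows matched to a transcript; dark bars are the 8 members. Mup3, Mup21 and Mup20 stand at 83.4%, 80.7% and 49.5%, and the other 5 members at 14.6% or less.

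Hepatocyte transcripts were abundant in all 12 libraries: the 6 genes Alb, Ttr, Apoa1, Apob, Tat and Cps1 summed to 43560 to 45359 FPKM in OXR1A-/- males, 52075 to 60743 in WT males, 54917 to 56452 in OXR1A-/- females and 50014 to 57214 in WT females, and none was at 0. Xist was at 0.04 to 0.82 FPKM in males and 19.2 to 45.92 in females. OXR1A-/- male 3 had 0.82 FPKM of Xist where the other males had 0.04 to 0.08. The Y-linked gene Eif2s3y was at 23.13 to 35.65 FPKM in males, and it was also listed at 0.85 FPKM in OXR1A-/- female 1 and 1.89 FPKM in WT female 1, with the other females at 0.10 or less. Results were therefore also computed without these 3 libraries. Oxr1, which the table gives as 1 row for all its isoforms, was at 25, 22.93 and 22.14 FPKM in OXR1A-/- males, 23.25, 12.07 and 18.43 in WT males, 20.05, 19.72 and 20.96 in OXR1A-/- females and 17.39, 17.49 and 20.65 in WT females, and such a row cannot show whether the OXR1A isoform is missing.

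In male livers without OXR1A every member had a lower mean than in WT males, by 2.08-fold to 7.46-fold in mean FPKM. Without OXR1A-/- male 3 the folds of Mup1, Mup7, Mup11, Mup12 and Mup14 were larger by over 1.5 times, at 6.26, 14.2, 33, 15.5 and 15.9. That of Mup12 was 2.45 without WT male 2. Mup20 and Mup21 fell past the test's threshold, 2 of 8 members, where 0.426% of the 11514 tested genes were called lower and 2.55% were called in either direction. In 7 of the 8 members all 3 OXR1A-/- males lay below all 3 WT males, which held for 2.49% of all tested genes, and Mup12 overlapped. Tests used limma on log2(FPKM + 1), with Benjamini-Hochberg adjustment over all tested genes and a threshold of 0.05. The members' median log2 difference was -2.60, against 0.19 for all tested genes. Relative to that overall shift the members lay between -1.45 (Mup3) and -4.29 (Mup11).

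Mup20 is darcin, the male pheromone of urine that attracts females. Its level was 2336, 1341 and 4174 FPKM in OXR1A-/- males, against 9497, 14373 and 11128 FPKM in WT males. The groups did not overlap: the highest knockout male lay under the lowest WT male. Mean levels were 2617 ± 1437 and 11666 ± 2482 FPKM (SD, n = 3 each), 4.46-fold lower without OXR1A (log2 difference -2.29, SE 0.51, adjusted p = 0.0448 by limma). This call was close to the threshold, and it was lost when any 1 male library other than OXR1A-/- male 3 was left out (adjusted p 0.0645 to 0.136 in limma), and without OXR1A-/- female 2, WT female 2 or WT female 3 (0.0589 to 0.0639). It was also lost with no filter on low values (adjusted p = 0.0749 by limma), median-ratio scaling (0.0505), a replicate block (0.0659), a fit of male groups alone (0.118) and array weights (0.246).

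Mup21, a peripheral gene with no role that is as well described, was at 62.93, 36.94 and 110.70 FPKM in OXR1A-/- males, against 192.76, 327.98 and 280.76 FPKM in WT males. Again each knockout male lay below each WT male. Means were 70.2 ± 37.4 and 267 ± 68.6 FPKM (SD, n = 3 each), 3.81-fold lower without OXR1A (log2 difference -2.02, SE 0.36, adjusted p = 0.0213 by limma). The adjusted p in limma was 0.0553, 0.0571, 0.0583 and 0.0766 without OXR1A-/- male 1, OXR1A-/- male 2, WT male 2 and WT male 3, each left out in turn. It was 0.103 with array weights and 0.134 in a fit of male groups alone.

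Mup3, the third peripheral member and an abundant urinary isoform, was at 3247, 1466 and 5807 FPKM in OXR1A-/- males, against 7620, 8033 and 6229 FPKM in WT males. The groups did not overlap, but OXR1A-/- male 3 came close to the lowest WT male. Means were 3507 ± 2182 and 7294 ± 945 FPKM (SD, n = 3 each), and the difference did not pass the test (log2 difference -1.26, SE 0.43, adjusted p = 0.114 by limma).

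The 5 central members varied most among the knockout males. Mup14 was at 658, 90.3 and 1946 FPKM in OXR1A-/- males, against 4313, 9041 and 4545 FPKM in WT males. Mup7 was at 408, 49.2 and 1651 FPKM in OXR1A-/- males, against 2598, 4453 and 2659 FPKM in WT males. In both genes the groups were apart, and the knockout males differed among themselves far more in proportion than the WT males.

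Mup1, an abundant isoform that has also been linked to glucose and lipid metabolism, was at 645, 168 and 1917 FPKM in OXR1A-/- males, against 2933, 2299 and 2399 FPKM in WT males. Mup11 was at 108, 13.4 and 685 FPKM in OXR1A-/- males, against 1767, 3329 and 924 FPKM in WT males. Mup12 was at 101, 21.6 and 638 FPKM in OXR1A-/- males, against 574, 1606 and 672 FPKM in WT males. Mup12 was the member whose groups overlapped, through OXR1A-/- male 3.

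None of these 5 passed the test with all libraries. Mup7 had a log2 difference of -3.28 (SE 0.91, adjusted p = 0.0728 by limma) and Mup11 of -4.10 (SE 1.32, adjusted p = 0.102), while Mup1, Mup14 and Mup12 had adjusted p of 0.135, 0.153 and 0.16. Without the 3 libraries that carried traces of the other sex, Mup7, Mup12, Mup14, Mup20 and Mup21 were called lower, 5 of 8. Without OXR1A-/- male 3 alone 7 of 8 were called. Of all 11514 tested genes, 294 were called with all libraries, 125 without those 3 and 570 without OXR1A-/- male 3. The members' count was 0 without OXR1A-/- male 1, OXR1A-/- male 2, WT male 2 or WT male 3. There 112, 81, 122 and 58 of all genes were called. It was 1 without WT male 1, OXR1A-/- female 2, WT female 2 or WT female 3, with 145, 155, 152 and 207 of all genes called.

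**Figure D2:**
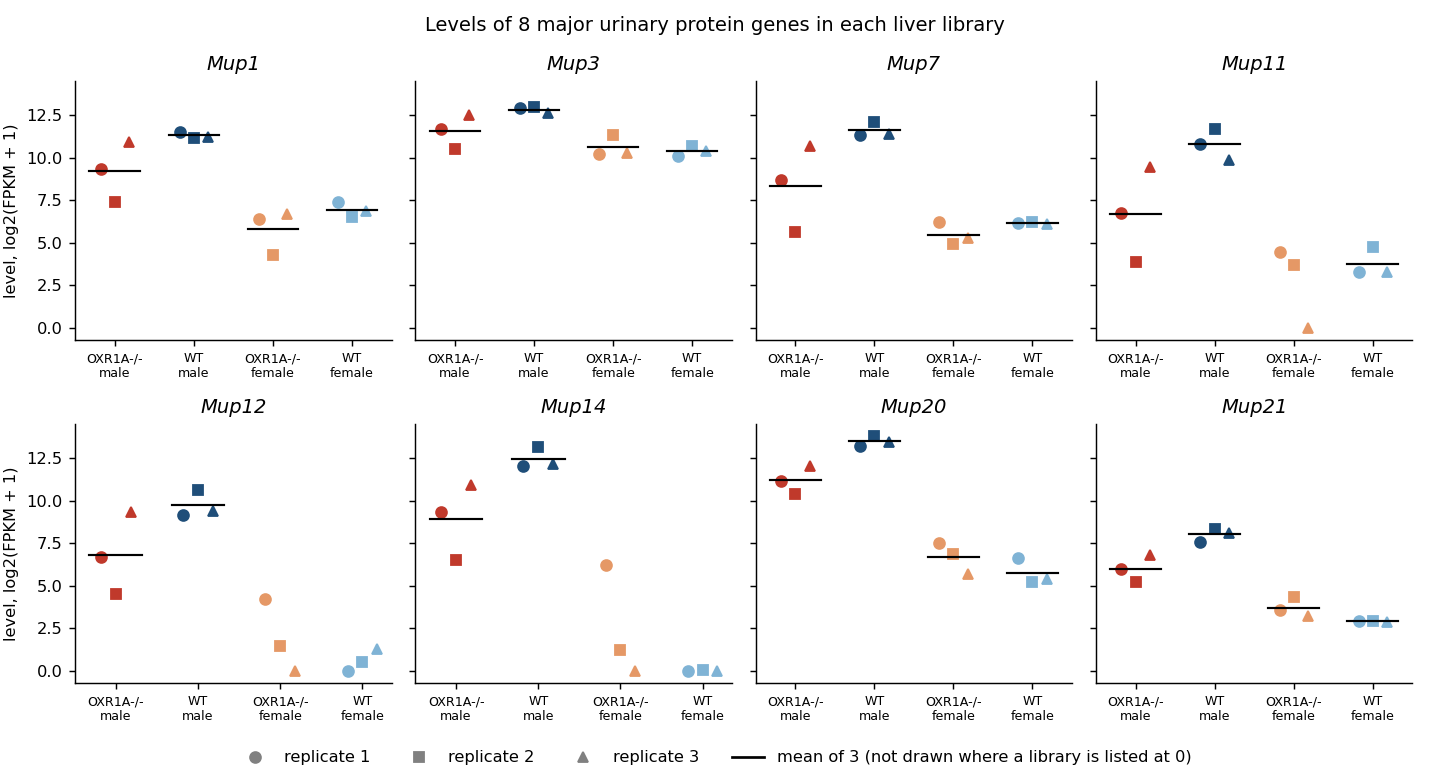
Level of each member in every library (vertical axis, log2 of FPKM + 1); columns are OXR1A-/- males, WT males, OXR1A-/- females and WT females, marker shapes are replicate numbers, and black lines are means of 3, not drawn where a library is listed at 0. The red triangle, OXR1A-/- male 3, is the highest and the red square, OXR1A-/- male 2, the lowest knockout male in all 8 panels.

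The knockout males kept 1 order across the 8 members: OXR1A-/- male 2 was the lowest and OXR1A-/- male 3 the highest in 8 of 8 members. Among WT males, male 2 was the highest in 7 of 8. No such single order held in females, where OXR1A-/- female 1 was the highest of its group in 5 of 8 members. The 28 pairs of members correlated at r of 0.83 to 0.99 over the 12 libraries on the log2 scale, and their deviations from group means at 0.24 to 0.93 (median 0.70). These points share libraries and, for the central genes, sequence.

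Levels of other cell types moved with the male comparison. Of all 11514 tested genes, 245 were called higher in OXR1A-/- males than in WT males, and 9074 had a positive difference. The 6 macrophage markers summed to 136.25, 306.24 and 204.8 FPKM in OXR1A-/- males, against 60.41, 94.88 and 86.88 in WT males, with 4 of 6 genes called higher. OXR1A-/- male 2, the lowest in every member, was the highest in these markers. The 5 endothelial markers summed to 43.74 to 60.06 FPKM in OXR1A-/- males, against 23.91 to 30.36 in WT males (4 of 5 called higher), and the 5 stellate markers to 135.27 to 202.91 against 86.83 to 105.89 (1 of 5 called higher).

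Of the 6 hepatocyte genes 0 were called in males (3 at an unadjusted p under 0.05 in limma). Among all 11514 tested genes 2.55% were called in this comparison, and 2752 had an unadjusted p under 0.05 in limma. The sum of the 6 hepatocyte genes was lower in every OXR1A-/- male than in every WT male. Alb, the main hepatocyte transcript, was at 35762, 32372 and 31720 FPKM in OXR1A-/- males, against 39817, 42312 and 44456 FPKM in WT males. Lymphocyte and cholangiocyte markers summed to at most 14.8 and 6.17 FPKM in any library. In whole liver, fewer cells of a type and less RNA per cell cannot be told apart, and the part of these other cell types in the Mup difference was not tested.

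Across the sexes in WT livers all 8 members were higher in males, 8 of 8 past the test's threshold, where 2.31% of all tested genes were called higher and 11.1% lower in males (13.4% in either direction). The median of all tested genes was -0.21 on the log2 scale, males minus females, and the members lay between 2.64 (Mup3) and 12.64 (Mup14) relative to it. The value of Mup14 depends on the 1 FPKM added before the log, since WT females are listed at or near 0. Its log2 difference ran from 12.09 to 15.58 over the main fit and the alternatives. All 8 members were called under each alternative tried. Among the other 13 family rows 1 was called higher in WT males and 4 lower. The members were chosen with earlier results of these data known, so the count of 8 of 8 may in part restate that choice. No member's male and female groups overlapped, which held in that direction for 6.04% of all tested genes. Markers of other cell types also differed by sex: 5 of 6 macrophage, 4 of 5 endothelial and 3 of 5 stellate genes were called lower in WT males, and the macrophage markers summed to 60.41 to 94.88 FPKM in WT males and 166.03 to 276.78 FPKM in WT females. Their part in the Mup difference was not tested.

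The size of the sex difference ran widely across members. Mup14 was at 4313, 9041 and 4545 FPKM in WT males and was listed at 0, 0.05 and 0 FPKM in WT females, so that it was an abundant transcript in males with next to none listed in females (adjusted p = 0.000182 by limma). Mup12 was at 574, 1606 and 672 FPKM in WT males and 0, 0.45 and 1.42 FPKM in WT females. For these 2 genes no fold is given, since females are listed at or near 0.

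Mup20 was at 9497, 14373 and 11128 FPKM in WT males and 99.1, 36.2 and 41.6 FPKM in WT females, a 198-fold difference in means, or 300-fold without WT female 1 (log2 difference 7.73, SE 0.51, adjusted p = 4.65e-06 by limma). Mup11 differed 138-fold (229-fold without WT female 2), Mup7 46.3-fold, Mup21 40.7-fold and Mup1 20.4-fold between WT males and WT females. Mup3 had the smallest difference, 5.37-fold, with 7294 ± 945 FPKM in WT males and 1358 ± 260 FPKM in WT females (SD, n = 3 each; log2 difference 2.43, SE 0.43, adjusted p = 0.00416 by limma).

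FPKM is a level per transcript length, and its order among the members was not the same in the 2 sexes. In WT males mean FPKM ran, from high to low, in the order Mup20, Mup3, Mup14, Mup7, Mup1, Mup11, Mup12 and Mup21. Only Mup20 and Mup21 were apart from their neighbours in the range of the 3 libraries, the other neighbours overlapping. In WT females Mup3 led with 1103 to 1622 FPKM, above Mup1 with 89.36 to 168.38 FPKM, and Mup14 was last. In OXR1A-/- males the order by mean was Mup3, Mup20, Mup1, Mup14, Mup7, Mup11, Mup12 and Mup21, and every pair of neighbours overlapped.

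In fold, the sex difference was smaller in OXR1A-/- livers than in WT livers for the 5 members with a fold in both, Mup1, Mup3, Mup7, Mup20 and Mup21, and the test of that difference is given with the interaction below. In OXR1A-/- livers 5 of 8 members were higher in males past the threshold, where 1.67% of all tested genes were called higher and 3.67% in either direction. Mup20 averaged 2617 ± 1437 FPKM in OXR1A-/- males and 116 ± 64.4 FPKM in OXR1A-/- females, 22.6-fold apart (log2 difference 4.51, SE 0.51, adjusted p = 0.000444 by limma). Mup21 averaged 70.2 ± 37.4 and 13 ± 5.73 FPKM in OXR1A-/- males and females, 5.41-fold apart (log2 difference 2.29, SE 0.36, adjusted p = 0.00442 by limma).

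Mup1 was 13.4-fold higher in OXR1A-/- males than in OXR1A-/- females (adjusted p = 0.0301 by limma), and Mup14 and Mup12 were also called, at adjusted p of 0.0239 and 0.0371. The fold of Mup1 was 5.97 without OXR1A-/- male 3. The call of Mup12 was lost in 12 of 20 alternatives, among them a replicate block (adjusted p = 0.0672 by limma) and a pseudocount of 0.1 (0.0727), that of Mup1 in 7 and that of Mup14 in 6. Mup7, Mup11 and Mup3 did not pass (adjusted p 0.122, 0.147 and 0.316), and in these 3 the male and female groups overlapped. The groups were apart in the other 5, with males higher, which held for 10.1% of all tested genes. Mup3 averaged 3507 ± 2182 FPKM in OXR1A-/- males and 1683 ± 787 FPKM in OXR1A-/- females. The number of members called was 2 without OXR1A-/- male 1, OXR1A-/- male 3 or OXR1A-/- female 2, 3 without OXR1A-/- female 3, and 8 without OXR1A-/- male 2. Of all tested genes 240, 334, 266, 250 and 363 were called in these 5 fits, against 423 with all libraries. Without the 3 libraries that held transcripts of the other sex 3 members and 123 genes were called, and Mup21 had an adjusted p of 0.0878 by limma.

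In females 0 of 8 members passed the test between OXR1A-/- and WT by limma (1 at an unadjusted p under 0.05), where 0.0174% of all tested genes were called and 706 of the 11514 had an unadjusted p under 0.05. Of the 8 differences 5 were positive and 3 negative, with a median of 0.52 on the log2 scale, against 0 for all tested genes. Mup21 was at 10.91, 19.46 and 8.58 FPKM in OXR1A-/- females, against 6.77, 6.69 and 6.21 FPKM in WT females. It was the member whose female groups did not overlap, which in this direction held for 9.22% of all tested genes (log2 difference 0.81, SE 0.36, unadjusted p = 0.0453, adjusted p = 0.802 by limma).

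Mup20 was at 180.15, 115.96 and 51.39 FPKM in OXR1A-/- females, against 99.14, 36.21 and 41.57 FPKM in WT females, and the groups overlapped (adjusted p = 0.838 by limma). Mup3 was at 1207, 2591 and 1252 FPKM in OXR1A-/- females, against 1103, 1622 and 1349 FPKM in WT females, also with overlap. Mup1 was at 81.89, 18.56 and 103.65 FPKM in OXR1A-/- females, against 168.38, 89.36 and 115.79 FPKM in WT females. Its interval on the log2 scale ran from -2.81 to 0.54, so neither a fall nor a lack of change was shown. Mup7 was at 72.96, 28.92 and 37.43 FPKM in OXR1A-/- females, against 69.17, 74.23 and 66.24 FPKM in WT females.

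Low values in females are given here beside the traces of the other sex in some libraries. Mup14 was listed at 75.52, 1.36 and 0 FPKM in OXR1A-/- females and at 0, 0.05 and 0 FPKM in WT females. Mup12 was listed at 18.12, 1.72 and 0 FPKM in OXR1A-/- females and at 0, 0.45 and 1.42 FPKM in WT females. OXR1A-/- female 1, the highest in both, is the library with 0.85 FPKM of Eif2s3y, while WT female 1, with 1.89 FPKM of Eif2s3y, had both genes at 0. The part of these traces in the female values was not tested. Mup11 was listed at 21.02, 11.99 and 0 FPKM in OXR1A-/- females and at 8.71, 26.02 and 8.81 FPKM in WT females.

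The knockout difference in males minus that in females was negative for all 8 members, and 0 of 8 passed the test by limma (5 at an unadjusted p under 0.05), where 0.0261% of all tested genes were called and 1040 had an unadjusted p under 0.05. Mup21 had the smallest p, with a difference of -2.83 (SE 0.51, adjusted p = 0.122 by limma), followed by Mup20 with -3.22 (SE 0.72, adjusted p = 0.312). Without OXR1A-/- male 3, Mup21 passed this test. The effects in the 2 sexes are therefore given side by side, and a difference between them was not shown at the threshold with all libraries.

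**Figure D3:**
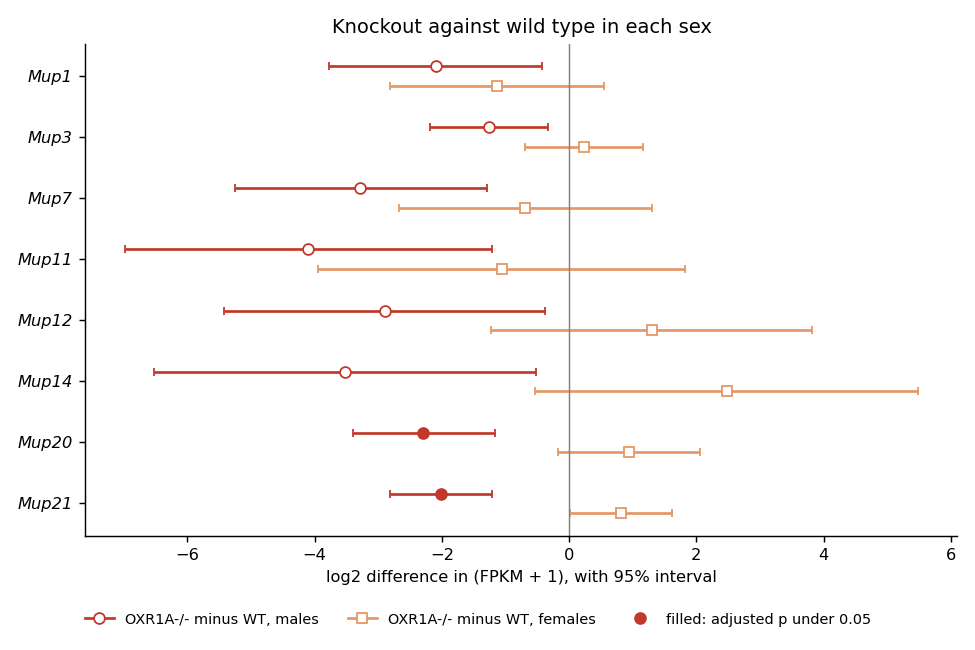
Difference OXR1A-/- minus WT in log2(FPKM + 1) for each member (horizontal axis), with the 95% interval from limma, in males (circles, upper) and females (squares, lower); filled markers passed the test. All 8 male estimates are below 0, with Mup20 (-2.29) and Mup21 (-2.02) filled, and the female estimates lie on both sides of 0.

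As a share of all FPKM in a library, the 8 members made up 1.44%, 0.587% and 2.82% in OXR1A-/- males, against 5.23%, 6.51% and 5.06% in WT males. Every knockout male lay below every WT male, and means were 1.61 ± 1.13% and 5.60 ± 0.794% (SD, n = 3 each), 3.47-fold lower without OXR1A. The exact permutation test gave p = 0.1, the smallest that 3 against 3 allows, and 0.133 after adjustment over 4 comparisons. In females the share was 0.310%, 0.482% and 0.266% in OXR1A-/- livers, against 0.268%, 0.345% and 0.286% in WT livers, with overlap (exact permutation p = 0.7). WT males exceeded WT females 18.7-fold and OXR1A-/- males exceeded OXR1A-/- females 4.58-fold in mean share, each without overlap and each with an exact permutation p of 0.1. OXR1A-/- male 3 weighs on the male values: without it the OXR1A-/- males averaged 1.01%, 5.53-fold below WT males and 2.87-fold above OXR1A-/- females.

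Summed over all 21 family rows, the share was 5.21%, 1.94% and 10.1% in OXR1A-/- males, against 12.8%, 16.5% and 10.5% in WT males, so that OXR1A-/- male 3 came just under the lowest WT male. In females it was 1.69%, 2.43% and 2.36% in OXR1A-/- livers, against 3.22%, 4.86% and 5.22% in WT livers, again with no overlap (exact permutation p = 0.1 in each sex). Between OXR1A-/- males and OXR1A-/- females the 21-row shares overlapped through OXR1A-/- male 2 (exact permutation p = 0.3), while WT males and WT females were apart (exact permutation p = 0.1). In females the difference in mean share was 0.053 percentage points for the 8 members, whose groups overlapped, and -2.27 for the 21 rows, whose groups did not. One of these rows carries a symbol that the RefSeq gene table names Mup18.

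The members made up 28.6 ± 1.42% of the family's summed FPKM in OXR1A-/- males and 42.8 ± 4.75% in WT males (SD, n = 3 each). In females they made up 16.5 ± 4.59% in OXR1A-/- livers and 6.97 ± 1.40% in WT livers. In males all 3 knockout values (27.6%, 30.2% and 27.9%) lay below the WT values (40.7%, 39.4% and 48.2%), and in females they (18.4%, 19.9% and 11.3%) lay above them (8.3%, 7.1% and 5.5%).

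**Figure D4:**
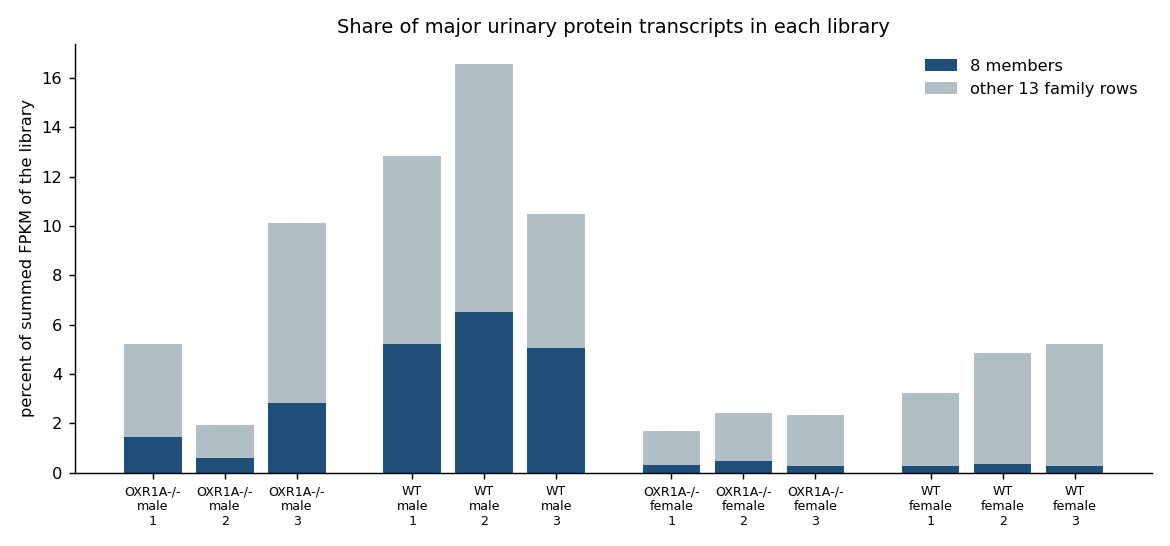
Percent of each library's summed FPKM (vertical axis) taken by the 8 members (dark) and the other 13 family rows (light), 1 bar per library. WT males stand at 10.5% to 16.5% in all and OXR1A-/- males at 1.94% to 10.1%; the dark part is under 0.5% in every female library.

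Because reads of the central genes may be split among copies, sums over them are also given, with no test. The 14 rows with under 25% of unlike windows, a limit chosen after the values were seen, summed to 21616, 7670 and 50421 FPKM in OXR1A-/- males, against 55002, 87538 and 41941 FPKM in WT males. These sums overlapped through OXR1A-/- male 3. In females they were 7570, 11215 and 11452 FPKM in OXR1A-/- livers, against 16069, 24150 and 27279 FPKM in WT livers, 2.23-fold lower without OXR1A and without overlap.

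The 3 peripheral members, Mup3, Mup20 and Mup21, whose transcripts are the more distinct, summed to 5647, 2844 and 10092 FPKM in OXR1A-/- males, against 17310, 22734 and 17638 FPKM in WT males. The difference in males was 3.10-fold in means and the groups were apart. In females these 3 summed to 1398, 2726 and 1312 FPKM in OXR1A-/- livers, against 1209, 1665 and 1397 FPKM in WT livers, with overlap.

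Among the other 13 rows, 1 was called lower in OXR1A-/- males, where 0.426% of all tested genes were. The difference was negative in 13 of 13, with a median of -0.91. It was negative in 2437 of all 11514 tested genes, with a median of 0.19. The called row was Mup8, a low-level central copy, at 3.10, 0.71 and 3.11 FPKM in OXR1A-/- males, against 9.85, 11.78 and 9.04 FPKM in WT males (log2 difference -1.86, SE 0.28, adjusted p = 0.00947 by limma). In females 0 of 13 were called by limma (10 at an unadjusted p under 0.05), and all 13 differences were negative, with a median of -1.07. Among all 11514 tested genes in females, 706 had an unadjusted p under 0.05 by limma and 5680 a negative difference. In 12 of the 13, all but Mup10, every OXR1A-/- female lay below every WT female, which held for 8.42% of all tested genes. Many of these rows share reads, so they are not separate observations.

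The most abundant of these rows were Mup19, Mup18 and Mup10. Mup19 averaged 7904 ± 8201 FPKM in OXR1A-/- males, 18906 ± 10360 FPKM in WT males, 2860 ± 677 FPKM in OXR1A-/- females and 9045 ± 2779 FPKM in WT females (SD, n = 3 each). Mup18 averaged 8762 ± 5366, 14282 ± 2700, 3847 ± 789 and 7443 ± 1589 FPKM in the same 4 groups, Mup10 5005 ± 3475, 7964 ± 2365, 2370 ± 628 and 3734 ± 959 FPKM, and Mup2 1455 ± 1012, 2835 ± 737, 750 ± 182 and 1356 ± 213 FPKM. Each of these 4 genes had its highest mean in WT males, and none passed the test in any of the comparisons.

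Mup9, Mup16 and Mup17 were low, with means of 98 ± 78.2, 33.1 ± 27 and 201 ± 229 FPKM in OXR1A-/- males and 125 ± 41.1, 92 ± 55.7 and 603 ± 740 FPKM in WT males. In females their means were 39.3 ± 2.36, 39.3 ± 14.5 and 39.6 ± 36.8 FPKM in OXR1A-/- livers and 145 ± 46.9, 170 ± 48.6 and 176 ± 80.7 FPKM in WT livers. Mup15, whose transcript has 0 windows of 50 bases found in no other gene, was listed at 0, 0 and 516.53 FPKM in OXR1A-/- males, 0, 5575.76 and 709.37 FPKM in WT males, 0 in every OXR1A-/- female, and 52.88, 338.02 and 547.39 FPKM in WT females.

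Mup4, a peripheral gene that is also known from nasal and other exocrine glands, had the smallest p of these in females. It was at 9.65, 8.12 and 9.70 FPKM in OXR1A-/- females, against 17.81, 24 and 19.34 FPKM in WT females (log2 difference -1.07, SE 0.23, unadjusted p = 0.000552, adjusted p = 0.364 by limma). Its transcript is distinct, with 87.6% of windows found in no other gene. Its peripheral neighbour Mup6 was at 32.26, 24.11 and 40.95 FPKM in OXR1A-/- females, against 60.19, 59.70 and 63.15 FPKM in WT females, also without overlap.

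Unlike the 8 members, 4 of the other 13 rows were called lower in WT males than in WT females. Among all tested genes 11.1% were called lower in WT males and 2.31% higher. The members were chosen with earlier results of these data known, so this contrast may in part follow from the choice. Mup13 (log2 difference -4.04, adjusted p = 0.00163 by limma), Mup5 (-1.70, adjusted p = 0.00656), Mup4 (-1.69, adjusted p = 0.000751) and Mup6 (-1.64, adjusted p = 0.00378) were called lower. Mup8 was called higher (2.17, adjusted p = 0.000563), and 8 rows were not called. In OXR1A-/- livers Mup13 (-2.72, adjusted p = 0.0294 by limma), Mup4 (-1.08, adjusted p = 0.0223) and Mup5 (-1.37, adjusted p = 0.0371) were called lower in males, 3 of 13 rows, where 2.01% of all tested genes were. Mup6 was at 19.47, 25.88 and 13.19 FPKM in WT males and 60.19, 59.70 and 63.15 FPKM in WT females. Mup3, whose upstream stretch shown above is 91.5% identical to that of Mup6, had the opposite direction, with 7620, 8033 and 6229 FPKM in WT males and 1103, 1622 and 1349 FPKM in WT females.

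**Figure D5:**
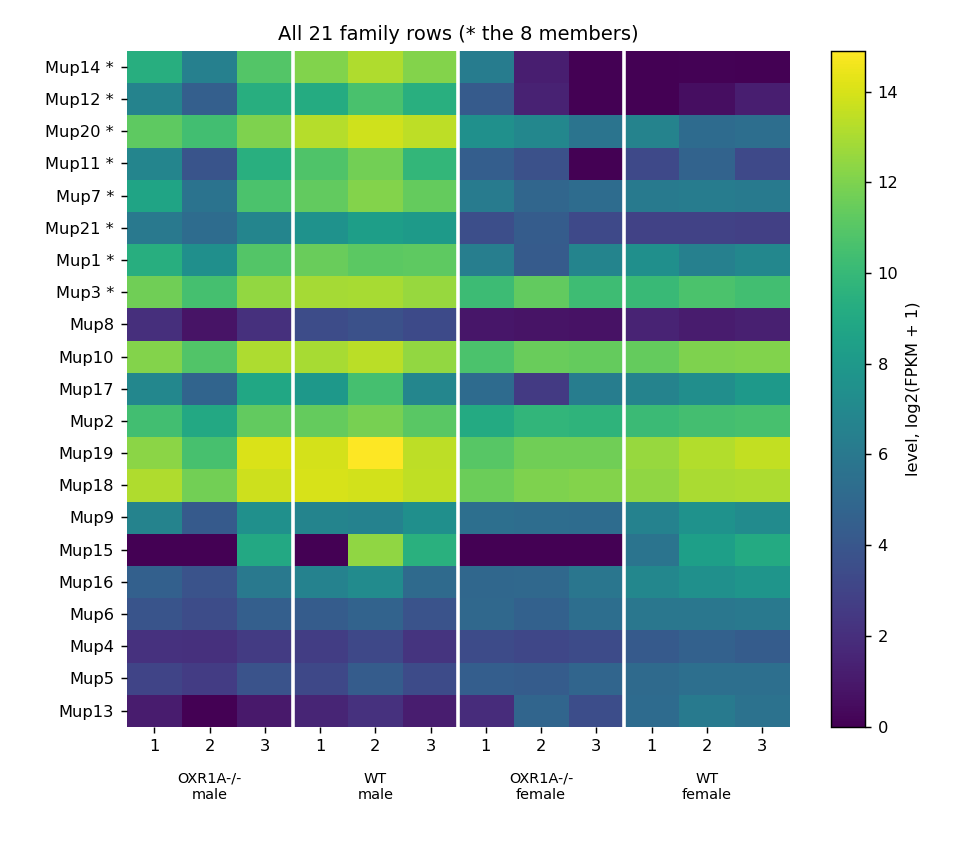
Level of all 21 family rows (colour, log2 of FPKM + 1) in each of the 12 libraries, columns ordered as OXR1A-/- males, WT males, OXR1A-/- females and WT females; stars mark the 8 members. On average the members are brightest in WT males, and the bottom rows, Mup6, Mup4, Mup5 and Mup13, are brighter in females.

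The genes whose pattern was most like that of the members' summed level, by Pearson r on the log2 scale over the 12 libraries, were Cyp4a12b (0.976), Slco1a1 (0.973), Serpina3k (0.969), Serpina1e (0.968), Slc22a28 (0.964) and Cyp7b1 (0.962). Their correlations of deviations from group means were 0.73, 0.77, 0.82, 0.68, 0.84 and 0.81 in that order. Cyp4a12b, a fatty acid hydroxylase, averaged 8.33 ± 5.27 FPKM in OXR1A-/- males and 35.5 ± 6.26 FPKM in WT males (SD, n = 3 each). Slco1a1, an organic anion transporter, averaged 13.2 ± 12.1 FPKM in OXR1A-/- males and 68.8 ± 18.7 FPKM in WT males. All 6 were higher in WT males than in WT females by mean, for example Cyp7b1, an oxysterol hydroxylase, with 104 ± 27.2 and 17.7 ± 0.491 FPKM. Because the 6 were picked by this correlation, their directions between the groups follow from the choice. These points share libraries and depth.

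Of 31 genes of growth hormone signalling, its outputs and liver transcription factors, 30 were tested. In males 0 of 30 were called between OXR1A-/- and WT by limma (3 at an unadjusted p under 0.05, Prlr, Hnf4a and Jak2). Among all 11514 tested genes 2.55% were called there, and 2752 had an unadjusted p under 0.05 by limma. In females 0 of 30 were called (1 at an unadjusted p under 0.05 by limma). There 0.0174% of all tested genes were called, and 706 had an unadjusted p under 0.05 by limma. Ghr averaged 227 ± 25.9 FPKM in OXR1A-/- males and 232 ± 18.0 FPKM in WT males, and Stat5b 11.4 ± 3.40 and 12.3 ± 4.75 FPKM. Zhx2, a repressor known from its effect on Mup genes, averaged 3.84 ± 0.399 FPKM in OXR1A-/- males and 3.85 ± 0.802 FPKM in WT males.

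Igf1, the circulating growth factor induced by growth hormone, averaged 206 ± 37.9 FPKM in OXR1A-/- males and 208 ± 31.8 FPKM in WT males. Bcl6, a repressor known from male liver, averaged 13.7 ± 8.5 FPKM in OXR1A-/- males and 13 ± 12.7 FPKM in WT males. Cish and Socs2, inhibitors of cytokine signalling that growth hormone induces, were lower in mean: Cish averaged 2.66 ± 0.248 FPKM in OXR1A-/- males and 10.8 ± 9.04 FPKM in WT males (log2 difference -1.17, SE 0.64, adjusted p = 0.282 by limma). Socs2 averaged 6.29 ± 4.83 FPKM in OXR1A-/- males and 13.8 ± 9.9 FPKM in WT males (log2 difference -0.98, SE 0.54, adjusted p = 0.278 by limma). Hnf4a, a factor of hepatocyte identity, averaged 142 ± 17.2 FPKM in OXR1A-/- males and 107 ± 21.2 FPKM in WT males (adjusted p = 0.133 by limma), and Jak2, the kinase of the growth hormone receptor, 4.92 ± 1.15 and 3.49 ± 0.812 FPKM (adjusted p = 0.194). Of these, Cish, Socs2, Hnf4a and Jak2 were named after their values were seen. Transcript levels do not measure the activity of these proteins. Prlr, the prolactin receptor, averaged 50.9 ± 12.5 FPKM in OXR1A-/- males and 23.4 ± 9.54 FPKM in WT males (log2 difference 1.15, SE 0.30, adjusted p = 0.0599 by limma).

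Between the sexes, 3 of the 30 genes were called lower in WT males than in WT females, close to the 11.1% of all tested genes called lower: Prlr (log2 difference -2.97, adjusted p = 7.89e-05 by limma), Cux2 (-3.17, adjusted p = 0.000405) and Ghr (-0.37, adjusted p = 0.0499). Cux2, a factor of female liver, averaged 0.0833 ± 0.0924 FPKM in OXR1A-/- males, 0.03 ± 0.01 FPKM in WT males, 5.08 ± 2.88 FPKM in OXR1A-/- females and 9.0 ± 5.07 FPKM in WT females. In OXR1A-/- livers Cux2, Prlr and Igfals, a carrier of insulin-like growth factors, were called lower in males, where 2.01% of all tested genes were (log2 differences -2.34, -1.60 and -1.05, adjusted p 0.00544, 0.0112 and 0.0371 by limma).

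Other lipocalins, proteins of the same fold, were called in both directions. Of 13 listed, 9 were tested, and in males 3 were called higher and 1 lower without OXR1A, with a median log2 difference of -0.10. Among all 11514 tested genes 245 were called higher and 49 lower in that comparison, with a median of 0.19. Lcn2, an acute-phase protein that binds iron carriers, averaged 251 ± 68.8 FPKM in OXR1A-/- males and 20.9 ± 14.0 FPKM in WT males (log2 difference 3.81, SE 0.54, adjusted p = 0.00917 by limma). Orm2 and Orm3, acute-phase orosomucoids, were also called higher (log2 differences 1.85 and 1.81, adjusted p 0.00246 and 0.00172). Apom, an apolipoprotein, was called lower, with 99.7 ± 37.0 FPKM in OXR1A-/- males and 192 ± 46.1 FPKM in WT males (log2 difference -0.97, SE 0.22, adjusted p = 0.0463 by limma). In females Orm2 was called higher, with 80.8 ± 13.8 FPKM in OXR1A-/- females and 21.5 ± 5.24 FPKM in WT females (log2 difference 1.87, adjusted p = 0.0122 by limma). It was the 1 gene called higher in females among all 11514 tested genes. Between the sexes 3 were called higher in WT males, Orm1 (log2 difference 0.71, adjusted p = 0.0218 by limma), Orm2 (1.61) and Rbp4, the retinol carrier of blood (0.48, adjusted p = 0.0499). Orm3 (-1.16) and Ptgds, a prostaglandin D synthase (-0.95, adjusted p = 0.0217), were called lower in WT males. Among all tested genes 2.31% were called higher and 11.1% lower in WT males. In OXR1A-/- livers Lcn2 (2.40) and Orm2 (1.59) were called higher and Apom (-1.33) and Ptgds (-1.45, adjusted p = 0.00455 by limma) lower in males. There 1.67% of all tested genes were called higher and 2.01% lower in males.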

How the data were processed

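Total liver RNA was isolated with a Qiagen kit, poly(A) RNA was captured and copied from random primers, and amplified cDNA was circularised, per the labels' protocols. The authors deposited FPKM values for 18560 genes in 12 libraries, with 2 decimals, per the file headers. TopHat2 and mm10 are named in the submitters' processing notes; the quantifier, its handling of reads shared between genes, the annotation release and library depth are items not given in the sources used here. Depth is therefore unknown and no counting intervals were made. FPKM summed to 526203 to 667434 per library, at most 0.34% of values of at least 5 FPKM were identical between any pair of libraries, and 0 value columns were left out.

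Genes reaching 1 FPKM in 3 or more libraries, 11514 in all, were fitted with limma 3.58.1 in R 4.3.3 on log2(FPKM + 1), with 1 mean per group over all 12 libraries, a variance trend and 2-sided tests adjusted by Benjamini-Hochberg over all of them at 0.05. Log2 differences on this scale understate changes where levels are low, and a fold is the ratio of the groups' mean FPKM. The script was tested on simulated data. Shares of summed FPKM were compared by 2-sided exact permutation tests. Other genes were named by rule: every other family row, the 6 genes most correlated with the summed members, and from the lists of 31 regulators and 13 lipocalins those called in any comparison plus Ghr, Stat5b, Bcl6, Zhx2, Cux2 and Igf1. Cish, Socs2, Hnf4a and Jak2 were named outside this rule, after their values were seen. Members and lists were chosen with earlier results of these data known. Sequences came from the RefSeq tables (GRCm38.p6) and GENCODE mouse release 21, aligned with Biopython 1.88. Alternatives were a pseudocount of 0.1, no filter, median-ratio scaling, scaling to the genes outside the family, fits of only the compared groups, a replicate block, array weights, leaving out each library, and leaving out together the 3 libraries that held transcripts of the other sex.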

Additional observations from a re-analysis of the deposited data

Results flagged for a closer look

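Mup21 went in opposite directions in the 2 sexes in every library: all 3 OXR1A-/- males (62.93, 36.94 and 110.70 FPKM) lay below all 3 WT males (192.76, 327.98 and 280.76 FPKM), and all 3 OXR1A-/- females (10.91, 19.46 and 8.58 FPKM) lay above all 3 WT females (6.77, 6.69 and 6.21 FPKM). The log2 difference in males minus that in females was -2.83 (SE 0.51), and the interaction did not pass the threshold (adjusted p = 0.122 by limma). The female difference alone had an adjusted p of 0.802 by limma. Among all tested genes, 2.49% were lower in OXR1A-/- males without overlap and 9.22% were higher in OXR1A-/- females without overlap. Mup21 was the 1 of 8 members whose female groups did not overlap, and it was flagged after the values were seen.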

How the results depend on the processing

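With all libraries, 2 of 8 members and 294 of all genes were called between OXR1A-/- and WT males. The counts were 0 and 63 with array weights, 0 and 3 in a fit of only those groups, 1 and 145 with median-ratio scaling, 1 and 174 with no filter, 5 and 125 without the 3 libraries that held transcripts of the other sex, and 0 to 7 and 58 to 570 without each library in turn. Scaling to genes outside the family gave 183 genes. Mup20 lost its call in 13 of 20 alternatives (adjusted p 0.0208 to 0.246) and Mup21 in 6 of 20 (0.00527 to 0.134), and no member changed direction in males. Between OXR1A-/- males and females, 5 members and 423 genes were called; the counts were 2 members with no filter, 2 and 216 in a fit of only those groups, 3 and 123 without the 3 libraries, 675 genes with array weights, and 2 to 8 and 201 to 637 without each library in turn. In females 0 members were called under any alternative, and the 2 genes became 229 with array weights, 6 in a fit of only those groups, 4 with no filter, 1 with a pseudocount of 0.1 or median-ratio scaling, 0 without the 3 libraries and 0 to 12 without each library. The interaction called 0 members and 3 genes, against 10 genes with array weights, 5 with a pseudocount of 0.1, 1 with scaling to genes outside the family, and 0 to 1 members and 1 to 22 genes without each library. In WT livers all 8 members were called under each alternative, while the 1539 genes between the sexes became 525 without the 3 libraries and 675 to 2081 without each library. In females Mup12 had -0.18 without the 3 libraries, Mup3 -0.13 without OXR1A-/- female 2 and Mup11 0.30 without OXR1A-/- female 3, each the reverse of its sign with all libraries and none called. Without each library in turn Mup3 ran from -0.13 to 0.42 and Mup11 from -1.93 to 0.30. The cause of these differences was not tested.

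With the replicate number as a block, 1 member and 132 genes were called between OXR1A-/- and WT males and 5 genes in the interaction. Between OXR1A-/- males and females 4 members were called, Mup12 losing its call (adjusted p = 0.0672 by limma), and apart from Mup20 in males no other member's call changed. Same-numbered libraries correlated at -0.32 to 0.56 in their deviations, and a library correlated best with its own number in 5 of 18 pairs, so the numbers were not taken as pairs.

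The difference in mean share (percentage points) between OXR1A-/- and WT males was -3.99 for the 8 members, -6.70 for the 20 rows with a Mup symbol, -7.54 for all 21 rows (an alternative added after seeing the data) and -4.99 against a total without the 10 most abundant other genes, and it ran from -4.59 to -3.47 without each library. In females it was 0.05, -1.60 for 20 rows, -2.27 for 21 rows and -0.01 to 0.10 without each library. Between WT males and females it was 5.30, 7.84, 8.86 and 6.57 in the same order as in males, and between OXR1A-/- males and females 1.26, 2.74 for 20 rows and 3.59 for 21 rows, whose groups overlapped (exact permutation p = 0.3). For the 8 members it was 0.64 without the 3 libraries and 0.66 to 1.77 without each library, the lowest without OXR1A-/- male 3. With 3 libraries per group no exact permutation test of a share can fall below p = 0.1, and the unknown depth leaves counting error unmeasured.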
